A study of Mus musculus with 11 samples.

Results

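The erythroid transcription factor network is described here through 10 genes, Gata1, Gata2, Zfpm1, Klf1, Tal1, Lmo2, Ldb1, Nfe2, Gfi1b and Bcl11a. They were chosen by name, from what is known of red cell development and with earlier results of these data known. Each had 1 probe set that carries its symbol alone, so they are 10 of 19933 genes measured by such a probe set. The samples were cells sorted from C57Bl/6 mice at steady state in which Zbtb46, a zinc finger transcription factor gene of classical dendritic cells, carries an inserted gfp. KO mice have gfp in both copies (Zbtb46gfp/gfp), Het mice in 1 copy (Zbtb46 gfp/+), and WT mice have intact copies (Zbtb46+/+). Splenic CD4+ dendritic cells (DC) were sorted from KO and WT mice by the presence of CD4, CD11b, CD11c, CD172 and MHC class II and the absence of B220 and CD8. From the bone marrow of KO, Het and WT mice, 3 lineage-negative CD117+ populations without CD41 and CD16/32 were sorted. Pre MegE cells had CD150 and no CD105, Pre CFU-E cells had CD150 and low CD105, and CFU-E cells had CD105 and no CD150. Total RNA was hybridised to 11 single-colour arrays, 1 for each genotype and cell type, and Het DC are not among them. The labels do not give the age or sex of the mice, how many mice were pooled, or whether the stages of 1 genotype came from the same animals. The p-values below therefore measure the spread between these arrays, which may be partly technical.

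GATA1 and GATA2 are zinc finger proteins that bind the same short GATA motif. GATA2 acts in stem cells, early progenitors and mast cells, and GATA1 takes its place at many sites as cells commit to the red cell and megakaryocyte lineages, an exchange known as the GATA switch. GATA1 works with its cofactor FOG1, the product of Zfpm1, and with a complex in which the basic helix-loop-helix factor TAL1 is joined through the bridging proteins LMO2 and LDB1, which bring distant enhancers to promoters. KLF1 binds CACCC motifs and turns on globin, heme and membrane genes. NF-E2, of which Nfe2 encodes the larger subunit, acts at the globin locus and in platelet production. GFI1B is a repressor that red cells and megakaryocytes need, and BCL11A is a repressor known for silencing fetal globin and, outside the red lineage, for its part in lymphocytes and plasmacytoid DC.

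Values are log2 of the deposited intensity, and levels of different genes are not set against each other. Genes entered a fit when 2 or more of its arrays placed them no lower than the array median, which held for 10701 genes on the 9 progenitor arrays and for 11560 on all 11. All 10 factor genes passed in both. A gene is called where limma's adjusted p is under 0.05, with Benjamini-Hochberg adjustment over all genes tested. Array medians lay between 7.61 and 7.77. Arrays of 1 stage correlated at 0.9954 to 0.9985 over all probe sets, and the lowest values belonged to the WT Pre MegE array, whose SD around its stage mean was 0.144 against 0.076 to 0.101 for the other progenitor arrays. The sort labels were set against marker genes. All 11 CD4+ DC markers lay above the median on both DC arrays, with a summed intensity of 89035 to 89081 in DC against 2304 to 3910 in progenitors. Slamf1, the CD150 gene, read 11.44 to 11.51 in Pre MegE, 9.87 to 9.93 in Pre CFU-E and 6.47 to 6.98 in CFU-E, while Eng, the CD105 gene, stayed between 11.69 and 11.84 in all progenitor arrays although its protein set the gates. Granulocyte markers, 9 of 9, lay above the median on every progenitor array, with summed intensities of 39105 to 46106 in Pre MegE, 21849 to 26963 in Pre CFU-E and 18849 to 23818 in CFU-E against 1099 to 1206 in DC. They thus moved in the same direction as Gata2 and Nfe2 below, and their part in those results was not tested.

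Zbtb46, the disrupted gene, read 8.02 in KO against 9.67 in WT DC. Among progenitors it read 7.71 in KO, 7.67 in Het and 7.52 in WT Pre MegE. In Pre CFU-E it read 7.70 in KO, 8.30 in Het and 8.14 in WT. CFU-E arrays gave 7.50 in KO, 8.62 in Het and 8.87 in WT. The KO arrays were the lowest of DC, Pre CFU-E and CFU-E but not of Pre MegE, and where the probes lie relative to the gfp insertion is not analysed here.

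The sequence before the start of a factor gene shows which of these motifs it holds. RefSeq windows of 250 bases directly upstream of annotated starts (GRCm38.p6) were at hand for 8 of the 10 genes, 12 windows in all, since 3 genes have several starts; Lmo2 and Nfe2 are named only. The windows shown are those of Klf1, Gfi1b and Gata1, whose RNA was higher in the later stages, and of Gata2, whose RNA was lower. They lie at chr8:84901732-84901981 (plus strand) for Klf1, chr2:28621983-28622232 (minus strand) for Gfi1b, chrX:7967911-7968160 (minus strand) for Gata1 and chr6:88193641-88193890 (plus strand, the first of its annotated starts) for Gata2. Each runs 5′ to 3′ towards the start, and capitals mark GATA motifs (GATA with A or T before it and A or G after it) and CACCC motifs (CCNCNCCC), read on both strands and with overlapping matches counted.
Klf1: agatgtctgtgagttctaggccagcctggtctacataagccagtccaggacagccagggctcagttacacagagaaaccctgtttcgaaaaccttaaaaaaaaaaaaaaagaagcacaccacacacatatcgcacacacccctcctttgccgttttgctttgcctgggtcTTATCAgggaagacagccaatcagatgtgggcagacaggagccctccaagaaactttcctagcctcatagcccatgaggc
Gfi1b: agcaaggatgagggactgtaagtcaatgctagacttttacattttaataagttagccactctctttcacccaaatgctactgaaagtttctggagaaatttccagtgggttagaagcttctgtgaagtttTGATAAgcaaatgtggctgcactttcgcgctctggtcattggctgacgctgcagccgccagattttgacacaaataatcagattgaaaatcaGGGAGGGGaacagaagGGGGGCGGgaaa
Gata1: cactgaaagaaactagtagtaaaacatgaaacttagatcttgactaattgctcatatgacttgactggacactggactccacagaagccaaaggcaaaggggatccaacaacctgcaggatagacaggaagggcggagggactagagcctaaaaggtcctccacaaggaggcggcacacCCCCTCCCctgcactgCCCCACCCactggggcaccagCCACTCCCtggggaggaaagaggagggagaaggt
Gata2: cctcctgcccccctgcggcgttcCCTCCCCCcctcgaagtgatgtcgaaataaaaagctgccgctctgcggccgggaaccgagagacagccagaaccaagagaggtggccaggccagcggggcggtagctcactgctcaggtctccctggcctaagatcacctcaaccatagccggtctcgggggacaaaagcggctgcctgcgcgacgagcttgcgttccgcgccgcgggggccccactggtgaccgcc
The Klf1 window holds 1 GATA motif, 75 to 80 bases before the start and on the strand opposite to the one printed, and no CACCC motif. The Gfi1b window holds 1 GATA motif, 115 to 120 bases before the start on the printed strand, and 2 CACCC motifs on the opposite strand. Gata1 has 3 CACCC motifs and no GATA motif, and this window of Gata2 has 1 CACCC motif and no GATA motif. Over all 12 windows, 4 held a GATA motif, 10 a CACCC motif and 5 an E-box (CANNTG, the kind of site TAL1 binds). Of 32851 RefSeq windows of this length, 26.5% held the GATA motif, 45.9% the CACCC motif and 66.2% an E-box. A match describes these letters only, and the arrays measured RNA, not binding.

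Gata2 changed most among the 10 genes during erythroid maturation. The Pre MegE arrays read 12.32 in KO, 12.41 in Het and 12.30 in WT. Pre CFU-E arrays read 10.66 in KO, 10.77 in Het and 10.68 in WT, and CFU-E arrays 8.95 in KO, 9.06 in Het and 9.03 in WT. The stages stood far apart, with means of 12.35 ± 0.06, 10.70 ± 0.06 and 9.01 ± 0.059 (SD, n = 3 each) from Pre MegE to CFU-E. Gata2 fell by 1.64 in Pre CFU-E relative to Pre MegE (SE 0.0454, 3.12-fold, limma adjusted p = 1.45e-08), which ranked it as the 125th lowest of the 10701 genes. In CFU-E it fell by a further 1.69 relative to Pre CFU-E (SE 0.0454, 3.23-fold, adjusted p = 2.45e-08, the 49th lowest). The steps differed by -0.05 (SE 0.0787, 95% interval -0.22 to 0.13, adjusted p = 0.684). Over the whole span, CFU-E minus Pre MegE, the difference was -3.33 (10.1-fold, adjusted p = 1.33e-10, the 44th lowest). In bulk RNA, fewer cells with Gata2 and less Gata2 RNA per cell cannot be told apart. Mast cell and basophil markers moved the same way, with a summed intensity of 6151 to 7039 in Pre MegE, 1725 to 2037 in Pre CFU-E and 756 to 913 in CFU-E. At most 4 of the 7 markers lay above the median in Pre MegE, 2 in Pre CFU-E and 1 in CFU-E. Of these markers, Hdc read 12.06 to 12.31 in Pre MegE and 8.13 to 8.68 in CFU-E. Cpa3 read 10.05 to 10.16 in Pre MegE and 6.40 to 6.49 in CFU-E. Fcer1a, a receptor chain of mast cells and basophils, was at 6.78 or lower on every progenitor array. The part of such cells in the fall of Gata2 was not tested.

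Gata1 was already high in Pre MegE and changed little. It read 11.75 in KO, 11.79 in Het and 11.68 in WT Pre MegE. The Pre CFU-E values were 12.07 in KO, 11.96 in Het and 12.06 in WT, and the CFU-E values 12.11 in KO, 12.09 in Het and 12.07 in WT. Pre MegE lay below both later stages without overlap, and these met at 12.07. Gata1 rose by 0.29 in Pre CFU-E relative to Pre MegE (SE 0.0516, 1.22-fold, limma adjusted p = 0.000788). The CFU-E minus Pre CFU-E difference was 0.06 (95% interval -0.06 to 0.18, adjusted p = 0.389), so these neighbours in the order of levels were not separated. Within each genotype the span change of Gata1 minus that of Gata2 was 3.73 in KO, 3.65 in Het and 3.66 in WT. The shift between the GATA genes was thus similar in size in the 3 genotypes and lay mostly in Gata2. Zfpm1, which encodes the cofactor FOG1, read 12.10 to 12.20 in Pre MegE, 11.80 to 11.91 in Pre CFU-E and 11.80 to 12.02 in CFU-E. It fell by 0.27 in Pre CFU-E relative to Pre MegE (SE 0.0707, adjusted p = 0.00713). The second step gave 0.01 (95% interval -0.15 to 0.17, adjusted p = 0.935). The KO CFU-E array, at 12.02, stood above Het and WT CFU-E, both at 11.80.

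**Figure D1:**
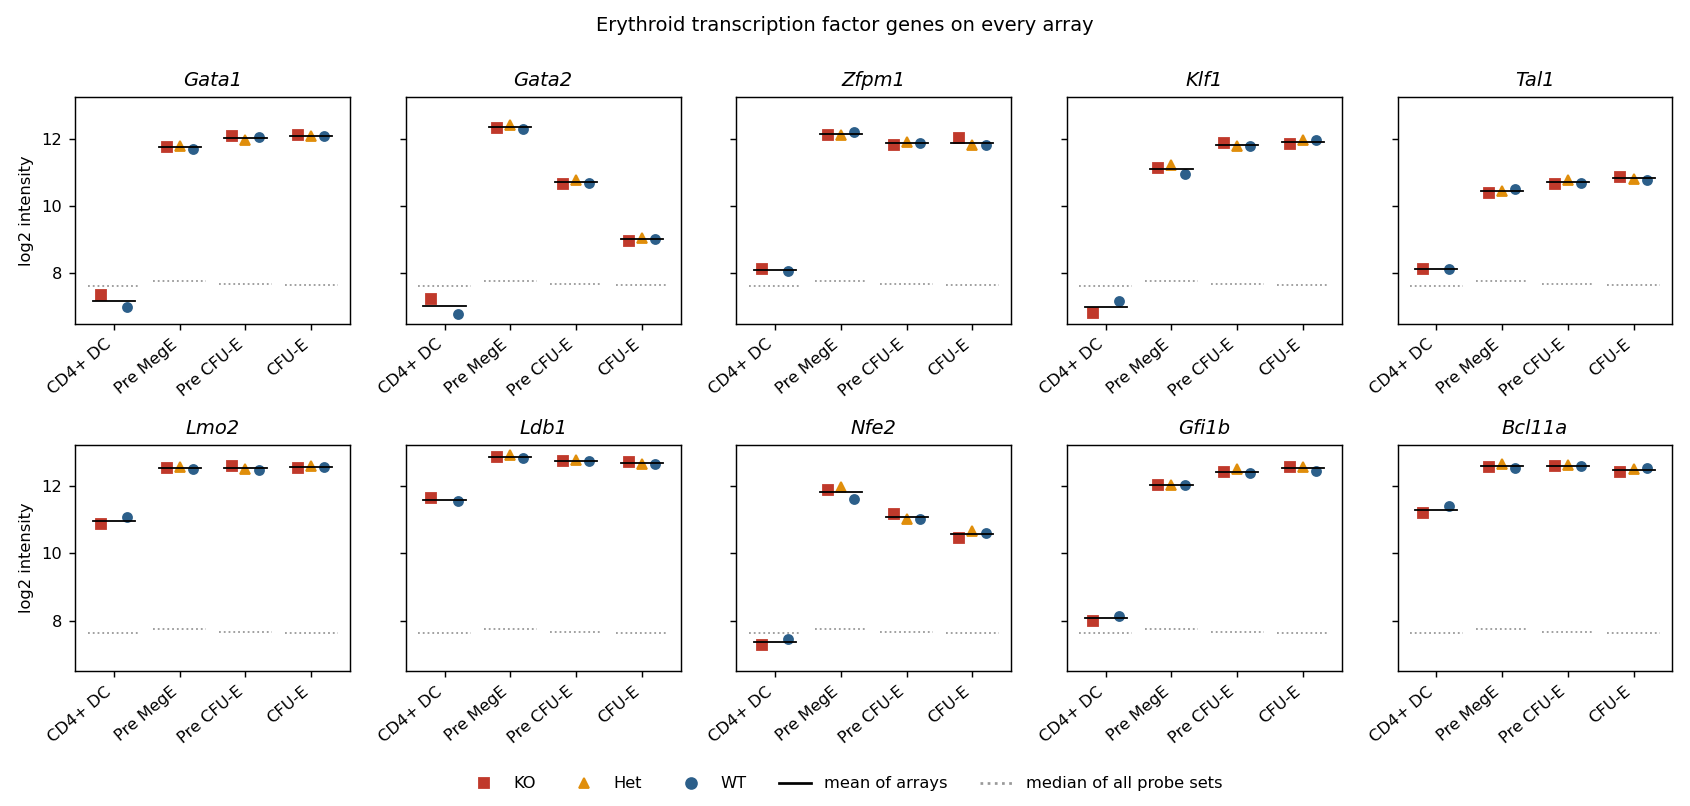
Log2 intensity (vertical axis) of each factor gene on all 11 arrays, with CD4+ DC and the 3 progenitor stages along the horizontal axis; symbols stand for genotype, solid lines for the mean of a cell type and dotted lines for the median of all probe sets. Gata2 steps down through 12.35, 10.70 and 9.01 on average, the other genes differ less between stages, and all 10 are lowest in DC.

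Klf1 changed most in the upward direction, and at the first step. It read 11.13 in KO, 11.23 in Het and 10.96 in WT Pre MegE. The Pre CFU-E arrays read 11.88 in KO, 11.79 in Het and 11.79 in WT, and the CFU-E arrays 11.83 in KO, 11.95 in Het and 11.96 in WT. All Pre MegE arrays lay below all later ones, while Pre CFU-E and CFU-E overlapped. Klf1 rose by 0.71 in Pre CFU-E relative to Pre MegE (SE 0.0698, 1.64-fold, limma adjusted p = 1.77e-05), and the second step gave 0.09 (95% interval -0.07 to 0.25, adjusted p = 0.322). The second step minus the first was -0.62 (SE 0.121, adjusted p = 0.00378). Without the WT Pre MegE array, which was the lowest, the first step was 0.63 (adjusted p = 6.53e-05) and the difference of the steps -0.54 (adjusted p = 0.00517).

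Of the members of the TAL1 complex, Tal1 rose, Ldb1 fell slightly and Lmo2 was not called. Tal1 read 10.39 in KO, 10.46 in Het and 10.51 in WT Pre MegE. Pre CFU-E arrays gave 10.66 in KO, 10.78 in Het and 10.67 in WT, and CFU-E arrays 10.87 in KO, 10.81 in Het and 10.78 in WT. Pre MegE was separate from the later stages, which met at 10.78. Tal1 rose by 0.25 in Pre CFU-E relative to Pre MegE (SE 0.0563, limma adjusted p = 0.00346), gave 0.12 at the second step (adjusted p = 0.128), and was 0.36 higher over the span (1.29-fold, adjusted p = 0.000241). Lmo2, the bridging LIM protein, stayed between 12.49 and 12.59 on all 9 progenitor arrays. Its span difference was 0.04 (95% interval -0.07 to 0.14, adjusted p = 0.48) on the deposited scale. With each array centred on its median it was 0.16 and called (adjusted p = 0.0119), and after quantile normalization it was -0.07, so its direction depends on the scaling. Ldb1, the LIM domain binding scaffold, read 12.84 to 12.93 in Pre MegE, 12.74 to 12.77 in Pre CFU-E and 12.66 to 12.72 in CFU-E, with no overlap between stages. It fell by 0.20 over the span (SE 0.0469, adjusted p = 0.00323). Its first step, -0.12, was called at an adjusted p of 0.0429 but not when any progenitor array other than KO CFU-E was left out (adjusted p 0.0519 to 0.177). That call was also lost with median centring (-0.04, adjusted p = 0.484), without a filter (0.0767) and with only the 2 stages fitted (0.0515). Its second step was -0.08 (adjusted p = 0.207).

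Nfe2 fell at both steps. It read 11.90 in KO, 11.99 in Het and 11.62 in WT Pre MegE. Pre CFU-E arrays gave 11.18 in KO, 11.03 in Het and 11.04 in WT, and CFU-E arrays 10.47 in KO, 10.66 in Het and 10.60 in WT. No stage overlapped another, and WT was the lowest of the Pre MegE arrays. Nfe2 fell by 0.75 in Pre CFU-E relative to Pre MegE (SE 0.0861, 1.69-fold, limma adjusted p = 4.64e-05) and by 0.50 in CFU-E relative to Pre CFU-E (1.42-fold, adjusted p = 0.0013). Over the span it was -1.26 (2.39-fold, adjusted p = 7.98e-07). Leaving out the WT Pre MegE array gave -0.86 for the first step (adjusted p = 3.21e-05). Megakaryocyte and platelet markers fell as well, with a summed intensity of 4972 to 5521 in Pre MegE, 1566 to 1679 in Pre CFU-E and 1429 to 1467 in CFU-E, and 5, 4 and 3 of 6 markers above the median in that order of stages. Pf4, the platelet factor gene that defines them, read 9.50 to 9.90 in Pre MegE, 7.75 to 8.07 in Pre CFU-E and 7.18 to 7.36 in CFU-E. Their part in the change of Nfe2 was not tested.

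Of the repressors, Gfi1b rose and Bcl11a was not called on the deposited scale. Gfi1b read 12.03 in KO, 12.04 in Het and 12.03 in WT Pre MegE. Pre CFU-E arrays gave 12.42 in KO, 12.50 in Het and 12.39 in WT, and CFU-E arrays 12.58 in KO, 12.58 in Het and 12.44 in WT. Pre MegE lay apart from the later stages, which overlapped. Gfi1b rose by 0.40 in Pre CFU-E relative to Pre MegE (SE 0.0497, 1.32-fold, limma adjusted p = 7.48e-05), and the second step was 0.10 (95% interval -0.01 to 0.21, adjusted p = 0.132). The second step minus the first was -0.30 (adjusted p = 0.0212), a call lost without WT Pre CFU-E (0.102), WT CFU-E (0.0532), Het Pre MegE (0.0534), Het Pre CFU-E (0.0936) or KO Pre MegE (0.0552), each given as its adjusted p. Bcl11a read 12.53 to 12.67 in Pre MegE, 12.59 to 12.63 in Pre CFU-E and 12.43 to 12.53 in CFU-E. Its first step was 0.02 (adjusted p = 0.779) and its second -0.11 (95% interval -0.23 to 0, adjusted p = 0.0923). After quantile normalization Bcl11a was called lower at the second step (-0.14, adjusted p = 0.028) and over the span (-0.22, adjusted p = 0.00124), whereas median centring gave 0.02 over the span.

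At the first step 4 of the 10 genes were higher (Gata1, Klf1, Tal1, Gfi1b), 4 were lower (Gata2, Zfpm1, Ldb1, Nfe2) and 2 were not called. Of all 10701 genes 66.3% were called there, 37.1% higher and 29.3% lower, so the share of factor genes called was near that of all genes. At the second step 0 of the 10 were higher and 2 lower (Gata2 and Nfe2) by limma's adjusted p, with 3 of the 10 at an unadjusted p under 0.05, where 44.0% of all genes were called, 18.7% higher and 25.3% lower. Over the span 4 were higher and 4 lower, against 76.6% of all genes called, 41.5% higher and 35.1% lower. The second step differed from the first for 2 of the 10 genes, Klf1 and Gfi1b, and for 38.7% of all genes. The median absolute difference of the factor genes was 0.28 at the first step, 0.10 at the second and 0.36 over the span, against 0.261, 0.141 and 0.376 for all genes tested. Only Gata2 was lower by at least 2-fold at either step, as were 4.35% of all genes at the first and 2.21% at the second, and Nfe2 joined it over the span, where 9.74% of all genes were. When each array was centred on its median, the median of all genes over the span moved to 0.17, against 0.05 on the deposited scale, and 2 rather than 4 factor genes were called lower over the span, since Zfpm1 (-0.14, adjusted p = 0.0813) and Ldb1 (-0.08, adjusted p = 0.141) lost their calls, and 5 rather than 4 were called higher, since Lmo2 gained one. That centring also moved the share of higher genes among all called to 66.7% at the first step, where it was 55.9% on the deposited scale, and to 64.9% over the span, where it was 54.2%. At the second step that share was 42.5% on the deposited scale, 52% with centring and 52.1% after quantile normalization, so the majority direction of all genes turned there.

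**Figure D2:**
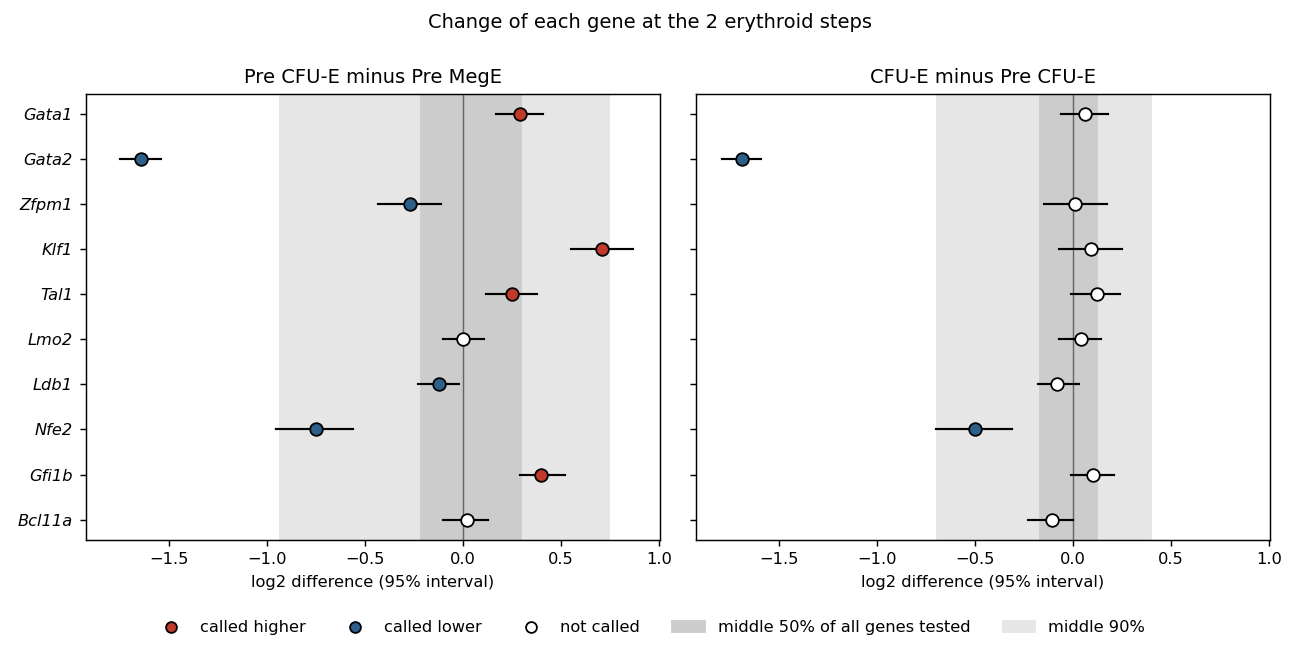
Log2 difference with its 95% interval (horizontal axis) for each factor gene (rows) at the first step, left, and the second step, right; filled points passed an adjusted p of 0.05, and grey bands hold the middle 50% and 90% of all genes tested. Gata2 lies outside the middle 90% at both steps, at -1.64 and -1.69, and 8 genes were not called at the second step.

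Across the 9 progenitor arrays the factor genes fell into patterns that follow the stages. Gata1 and Klf1 (Pearson r = 0.98) and Tal1 and Gfi1b (0.97) ran together, as did Gata2 and Nfe2 (0.97), whereas Gata1 ran against Gata2 (-0.90). These values describe 3 clusters of arrays that share their stages and genotypes, so they carry little beyond the stage differences. The genes most like Gata2 over these arrays were Trim16, Spns3 and Slc9a3r1 (each 0.999). Those most like Klf1 were Nip7 (0.998), Spcs1 (0.997) and Mrpl17 (0.997). For Gata1 they were Pes1 (0.995), Fgfrl1 (0.989) and Dctn2 (0.988), for Nfe2 Cirbp (0.996), Ptms (0.995) and Fkbp7 (0.995), and for Gfi1b Aco1 (0.993), Sav1 (0.992) and Letm1 (0.991). Tal1 was most like Arf5 (0.990), Dlst (0.988) and Tmem168 (0.987). Zfpm1 was most like Dnm2 (0.978), Ankrd13a (0.972) and Npc1 (0.970), and Ldb1 like Atg16l2 (0.992), Zbtb9 (0.989) and Ift46 (0.986). For the genes with almost no range the best match was weaker, with Pheta2 at 0.940 for Lmo2 and Bloc1s2 at 0.929 for Bcl11a.

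The targets, partners and competitors of these factors were read from 5 lists. Of 35 listed erythroid target genes of GATA1 and KLF1, 24 had a probe set of their own and all of these were tested, while the globin genes on the list are not analysed here. Among them 19 were higher and 4 lower at the first step, where 37.1% of all genes were higher and 29.3% lower. At the second step 22 were higher and 0 lower, against 18.7% and 25.3% of all genes. Over the span 22 were higher and 1 lower, against 41.5% and 35.1% of all genes. The span median was 1.01 against 0.05 for all genes tested. Rhd, which encodes an Rh blood group protein, was 4.26 higher over the span (SE 0.0835, 19.2-fold, adjusted p = 3.57e-10). Sptb, the beta chain of red cell spectrin, gave 2.79, while Trim10, a ubiquitin ligase of erythroid cells, was at least 3.13-fold higher and Epb42, a membrane skeleton protein, at least 3.04-fold. These are lower bounds from the array median, since both genes lay below it on all Pre MegE and Pre CFU-E arrays. For the same reason no first-step change can be read for them, and at the second step they were at least 3.32-fold and 3.22-fold higher. Both passed the filter only through the CFU-E arrays, where they are high. Their place in the counts of higher targets is therefore not separate support. Trim10 read 6.70 to 6.95 in Pre MegE, 7.09 to 7.21 in Pre CFU-E and 9.39 to 9.42 in CFU-E. Bcl2l1, a survival gene, was the only target called lower over the span (-0.34, adjusted p = 0.000259). The 4 targets lower at the first step were Bcl2l1 (-0.62), Slc25a37 (-0.32), Slc4a1 (-0.29) and Alas2 (at least 1.15-fold).

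Of 12 measured genes linked to GATA2 in early progenitors and mast cells 9 passed the filter, and these were lower over the span, with a median of -2.43, or -2.14 with the 3 genes below the array median in CFU-E at their bound. Ms4a2 alone passed the filter only through the Pre MegE arrays, where it is highest. The list was chosen with earlier results of these data known, so its count describes the list and is not separate support. Cpa3, a mast cell protease, lay below the median on all CFU-E arrays and was at least 5.58-fold lower. Hdc, which makes histamine, gave -3.68, Cd34, a progenitor surface protein, -3.61 and Itga2b, the CD41 integrin chain, -2.97. The mast cell genes among them are counted in the marker list given beside Gata2. Factors of other blood fates were mostly lower as well, 13 of 15 over the span with 2 higher and a median of -0.94. Of all genes 35.1% were lower there and 41.5% higher. Cebpa, counted as lower, passed the filter only through Pre MegE and was at least 1.16-fold lower. Meis1, a stem cell homeobox factor, was below the median on all CFU-E arrays and at least 16.6-fold lower. Mef2c gave -3.53, and the ETS factors Fli1 and Erg, which act in megakaryocytes and stem cells, -3.06 and -2.88. Spi1, which encodes PU.1, the myeloid factor that binds and opposes GATA1, was -2.27 over the span (SE 0.0443, 4.81-fold, adjusted p = 3.57e-10). It read 10.74 in KO, 10.69 in Het and 10.80 in WT Pre MegE. In Pre CFU-E it read 9.29 in KO, 9.30 in Het and 9.41 in WT, and in CFU-E 8.46 in KO, 8.41 in Het and 8.55 in WT. As with Gata2, arrays of 1 stage agreed closely and the stages lay apart. The granulocyte markers given above moved the same way, and their part in the fall of Spi1 was not tested.

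Of the 28 tested complex partners and cofactors, 8 were higher and 13 lower over the span, with a median of -0.05. With 21 of 28 called, their share lay near the 76.6% of all genes. Lmo4, a LIM-only protein related to Lmo2, gave -1.75 (adjusted p = 2.62e-08), Runx1, a factor of stem cells and megakaryocytes, -1.65, Cbfa2t3, the corepressor ETO2 of the TAL1 complex, -1.17 and Bach1, a repressor that heme inactivates and that pairs with the same small MAF proteins as NF-E2, -0.75. The small MAF genes Mafg (0.02, adjusted p = 0.672) and Mafk (-0.01, adjusted p = 0.898) were not called. Among 20 other erythroid transcription factors 6 were higher and 10 lower, with a median of -0.11, and the 16 called are again near that share. Nfia was 1.73 higher, E2f4, a cell cycle factor that red cell precursors need, 1.23 and Klf3, a KLF family repressor, 0.82, while the ETS repressor Etv6 was -2.26. Nfia changed at the first step (1.68, adjusted p = 1.44e-07), with 11.42 to 11.64 in the later stages against 9.69 to 9.94 in Pre MegE.

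**Figure D3:**
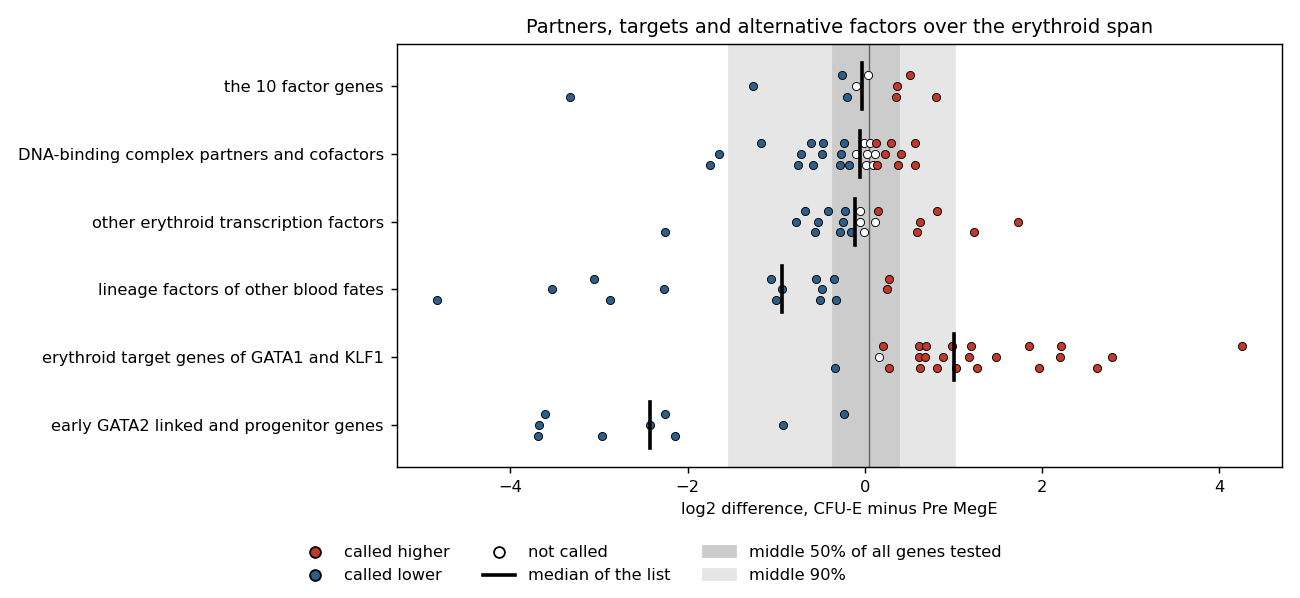
Log2 difference of CFU-E minus Pre MegE (horizontal axis) for the 10 factor genes and 5 related gene lists (rows), with 1 point per gene, filled where called and drawn at its fitted difference even where a group lies below the array median, and a bar at each list's median; grey bands hold the middle 50% and 90% of all genes tested. The target list centres on 1.01 and the GATA2-linked list on -2.43, and most of the factor genes lie within 1 log2 unit of 0.

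In DC all 10 factor genes were lower than in the progenitors, each by at least 2-fold on the deposited scale. Of 11560 genes tested 64.6% were lower in DC, and 35.6% were lower by at least 2-fold. Gata1, Gata2, Klf1 and Nfe2 lay below the median on both DC arrays and passed the filter only through the progenitors, where they are high. Their place in the count of lower genes is therefore not separate support. The median difference of the factor genes was -3.70, against -0.59 for all genes tested. After quantile normalization the median of all genes was -0.117 and the share of higher genes among all called was 45.1%, compared with 28.2% on the deposited scale, and all 10 calls held, but 7 of the 10 then passed 2-fold, with Lmo2 at 1.99-fold, Bcl11a at 1.65-fold and Ldb1 at 1.62-fold. The genes fell into 3 tiers by where they stood on the DC arrays, whose medians were 7.61 and 7.64.

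Gata1, Gata2, Klf1 and Nfe2 lay below the array median on both DC arrays, so that their folds are lower bounds, taken from the array median. Gata1 read 7.34 in KO and 7.0 in WT DC against 11.68 to 12.11 in progenitors, at least 20.1-fold lower in DC (limma adjusted p = 1.46e-12). Klf1 read 6.83 in KO and 7.16 in WT DC against 10.96 to 11.96 in progenitors, at least 15.9-fold lower. For Nfe2 the DC arrays gave 7.28 in KO and 7.45 in WT against 10.47 to 11.99, at least 11.6-fold lower. These ranges left a wide gap between DC and every progenitor array. Gata2 read 7.24 in KO and 6.80 in WT DC, at least 26.4-fold lower than in Pre MegE, 8.44-fold lower than in Pre CFU-E and 2.61-fold lower than in CFU-E. The gap of Gata2 to DC thus narrowed along the stages but did not close, and CFU-E still differed from DC (fitted difference -1.96, SE 0.102, adjusted p = 9.57e-09).

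Zfpm1, Tal1 and Gfi1b lay just above the array medians in DC, between 7.99 and 8.15. Gfi1b read 7.99 in KO and 8.15 in WT DC against 12.03 to 12.58 in progenitors, a fitted difference of -4.25 (SE 0.0629, 19.0-fold, limma adjusted p = 1.38e-12). Zfpm1 read 8.12 in KO and 8.08 in WT DC, a difference of -3.87 (14.6-fold). Tal1 read 8.14 on both DC arrays, -2.51 from the progenitors (5.69-fold). Lmo2, Ldb1 and Bcl11a were well above the median in DC. Lmo2 read 10.89 in KO and 11.07 in WT DC against 12.49 to 12.59 in progenitors, a difference of -1.56 (2.95-fold). Ldb1, which acts with LIM proteins in many tissues, read 11.65 in KO and 11.56 in WT DC, a difference of -1.16 (2.23-fold). Bcl11a read 11.19 in KO and 11.41 in WT DC, a difference of -1.24 (2.36-fold). Plasmacytoid DC and B cells also express Bcl11a. Of 7 plasmacytoid DC markers 6 lay above the median on each DC array, among them Siglech, the defining one, at 8.52 in KO and 8.23 in WT DC, with a summed intensity of 3088 to 3274 in DC against 2212 to 2564 in progenitors. Of 6 B cell markers 2 did, with sums of 1801 to 2257 in DC against 1769 to 3870 in progenitors. The gate of the DC excluded cells with B220, which both of these cell types carry. Their part in the Bcl11a level of DC was not tested.

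Of the 24 targets 21 were lower and 2 higher in DC, where 64.6% of all genes were lower. Their median was -3.25, or -3.11 with the 7 genes below the median on both DC arrays at their bound. These 7 passed the filter only through the progenitors, where they are higher, so their place in the count is not separate support. Alas2 and Slc4a1 read higher in WT DC than on any progenitor array. Alas2 read 8.81 in WT and 7.91 in KO DC against 7.62 to 8.22 in progenitors. Slc4a1 read 9.41 in WT and 8.47 in KO DC against 8.14 to 9.23 in progenitors. Car1, a carbonic anhydrase of red cells, gave -6.31 and the water channel Aqp1 -5.28, each with 1 of the DC arrays below the median. Rhag, the partner of Rhd, was at least 13.4-fold lower and the Kell blood group gene Kel at least 14.9-fold. Factors of other fates divided instead, with 11 higher and 6 lower of 17, where 25.3% of all genes were higher. Irf4 and Batf3 passed the filter only through the DC arrays, where they are high, and without them 9 were higher and 6 lower of 15. Ebf1, Erg, Hoxa9 and Pax5, counted as lower, lay below the median on both DC arrays and passed only through progenitors. Neither count is therefore separate support. Irf4, which CD4+ DC require, lay below the median on all progenitor arrays and was at least 21-fold higher in DC. Id2, an inhibitor of helix-loop-helix factors that DC need, was 3.82 higher and Spi1 2.98, while the homeobox factor Hoxa9 was at least 2.87-fold lower. Of 29 partners and cofactors 7 were higher and 19 lower, a share of lower genes near the 64.6% of all genes. They included Ssbp2 (-3.37), a single-stranded DNA binding protein that stabilises LDB1, Hdac2 (-2.18), Mbd3 (-1.87) and Maff (1.96), a small MAF protein that passed the filter only through DC. Among 20 other erythroid factors 1 was higher and 15 lower, among them Myb (-5.45), a factor of proliferating progenitors, and Nfia (-3.02). Gfi1 and Sox6, counted as lower, lay below the median on both DC arrays and passed the filter only through the progenitors.

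No factor gene of the progenitors was called between genotypes. Between KO and WT 0 of the 10 genes were called by limma, and 0 had an unadjusted p under 0.05. Of all genes 0.140% were called (15 genes), and 613 had an unadjusted p under 0.05. The differences ran from -0.02 (Gata2 and Bcl11a) to 0.09 (Nfe2), and the widest of their 95% intervals reached 0.29, so that changes of more than 1.22-fold lay outside every interval. That limit and the highest value rest on Nfe2 and on single arrays, since Nfe2 gave 0.19 without KO CFU-E (interval up to 0.37, 1.30-fold) and 0.17 without WT CFU-E (up to 0.38, 1.31-fold). Between Het and WT 0 were called and 0 had an unadjusted p under 0.05, where 0.0374% of all genes were called (4 genes, 565 at an unadjusted p under 0.05). The differences ran from -0.02 to 0.14, again with Nfe2 highest (95% interval -0.05 to 0.34). Nfe2 gave 0.23 without Het Pre CFU-E (0.03 to 0.42) and 0.22 without WT CFU-E (0.01 to 0.43), and 0 factor genes were called by limma in either case, with 1 at an unadjusted p under 0.05. Between KO and Het 0 of the 10 and 0 of all genes were called, a background of 0%, with 1 factor gene (Gata2, -0.10, unadjusted p = 0.0465, adjusted p = 1) and 254 of all genes at an unadjusted p under 0.05. These intervals rest on 3 arrays per genotype in an additive fit with 4 residual degrees of freedom.

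Within single stages, where each difference is that of 2 arrays, KO minus WT ran from -0.13 (Tal1) to 0.27 (Nfe2) in Pre MegE, from -0.08 (Zfpm1) to 0.14 (Nfe2) in Pre CFU-E and from -0.13 (Klf1) to 0.22 (Zfpm1) in CFU-E. The Nfe2 difference had no steady sign, at 0.27, 0.14 and -0.13 along the stages. The Pre MegE differences of Nfe2 and Klf1 (0.27 and 0.17) share the WT Pre MegE array that stood apart, and Het minus WT was also largest for these genes there (0.37 and 0.27). Leaving out WT Pre MegE gave a range of -0.05 to 0.09 for KO minus WT over the 10 genes and -0.02 to 0.12 for Het minus WT.

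**Figure D4:**
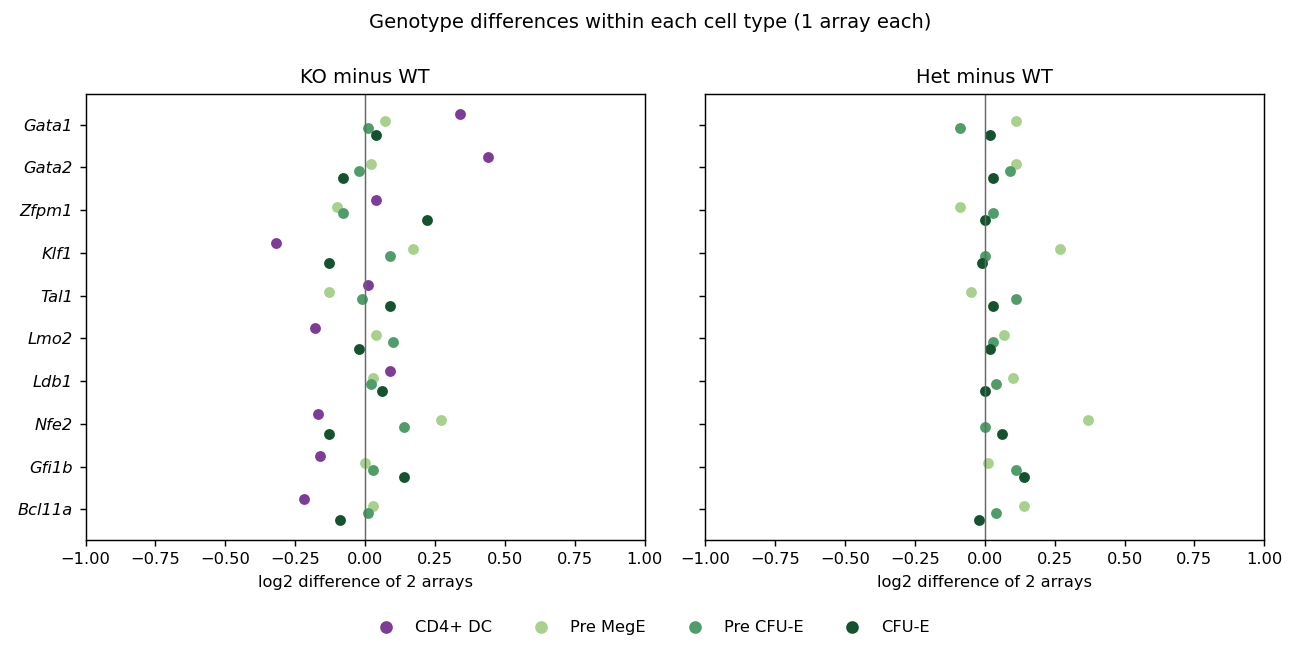
Log2 difference of 2 arrays (horizontal axis), KO minus WT at left and Het minus WT at right, for each factor gene (rows), with 1 point per cell type; there is no Het DC array. The points of the progenitor stages lie within 0.27 of 0 for KO minus WT, and the widest of that panel are Gata2 (0.44), Gata1 (0.34) and Klf1 (-0.32) in DC, all below the array median on both DC arrays; the widest Het minus WT point is Nfe2 in Pre MegE (0.37).

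In DC, KO minus WT is the difference of 2 arrays without a replicate. Among the 6 factor genes that reached the median of at least 1 DC array it ran from -0.22 (Bcl11a) to 0.09 (Ldb1), and none passed a 2-fold difference, which 0.114% of 10554 genes did in the upward and 0.199% in the downward direction. The median absolute difference of those genes was 0.133. The other 4 genes, Gata1 (0.34), Gata2 (0.44), Klf1 (-0.32) and Nfe2 (-0.17), lay below the median on both arrays, so that no fold is given for them. A fit over all 11 arrays compared the KO effect in DC with that in progenitors, assuming that the DC pair, with no replicate, has the spread of the progenitors. It called 1 of the 10 genes, Gata2 (0.47, SE 0.0911, limma adjusted p = 0.0257), where 4.57% of 11560 genes were called. The call was lost without WT Pre CFU-E (0.47, adjusted p = 0.0825), WT CFU-E (0.44, 0.065), Het CFU-E (0.47, 0.0515), KO Pre MegE (0.48, 0.0663) or KO Pre CFU-E (0.47, 0.0524). In the same fit the 24 targets had a median of -0.41, against -0.053 for all genes, although 7 of the 24 lay below the array median on both DC arrays. Late red cell markers had a summed intensity of 760 in KO against 1313 in WT DC. Of 8 such markers 3 were measured, and Bpgm lay below the median on both DC arrays. The sum thus rests mostly on Alas2 and Slc4a1, which are also among the 24 targets, so it is not separate from them. Alas2, the first enzyme of heme synthesis in red cells, read 7.91 in KO against 8.81 in WT DC, and Slc4a1, the band 3 anion exchanger, 8.47 in KO against 9.41 in WT DC. The part of red cell RNA in the DC values was not tested.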

How the data were processed

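RNA of 11 sorted cell samples was measured on single-colour arrays, labelled with the Ambion/Affymetrix WT Expression Kit per the labels. The authors deposited intensities, which their values show to be linear, and, per the submitters' processing notes, RMA produced them. The sources used here give no version of it. Of 29674 probe sets 21780 had 1 gene symbol, 1618 several and 6276 none, and only the first kind was used. The probe set with the highest mean represented a gene. Tests used log2 intensities in limma 3.58.1 under R 4.3.3 (additive in stage and genotype, eBayes, two-sided), and the procedure was tested on simulated data. The factor genes, all gene and marker lists and the comparison of the steps were chosen with earlier results of these data known, and the last after seeing the data. Of each list, up to 4 called genes with the largest differences were named. Spi1, Cebpa, Bcl2l1, Slc25a37, Mafg, Mafk, Alas2 and Slc4a1 were chosen after their values were seen. For likeness, the 3 genes of highest Pearson r were named where the match was close. Alternatives were median centring, quantile normalization, no or a stricter filter, a pseudocount of 32, mean of probe sets, no block, array weights, trend and robust moderation, 2 stages only, and leaving out each array. The number of arrays limits the precision.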

Additional observations from a re-analysis of the deposited data

Results flagged for a closer look

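Gata2 stood out because the KO effect in DC differed from that in the progenitors in the interaction test, by 0.47 on the log2 scale (SE 0.0911, 95% interval 0.26 to 0.67, limma adjusted p = 0.0257). KO minus WT was 0.44 in DC, from 7.24 in KO and 6.80 in WT, and -0.02 over the progenitors. In single stages it was 0.02 in Pre MegE, -0.02 in Pre CFU-E and -0.08 in CFU-E, so 1 of 3 stages shared the sign of the DC pair. Both DC values lay below the array medians of 7.61 and 7.64, and each rests on 1 array. The adjusted p over all alternatives ran from 0.000422 to 0.0825.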

How the results depend on the processing

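No paired analysis was possible because the labels give no replicate numbers; genotype, or stage for the genotypes, was the block of the fits. All 10 DC calls held under all 20 alternatives, as did the first-step calls of Gata1, Gata2, Zfpm1, Klf1, Tal1, Nfe2 and Gfi1b under 19, and the second-step calls of Gata2 and Nfe2. Each factor gene has 1 probe set, so the mean of probe sets left its values unchanged. Median centring called 1 factor gene higher at the second step (Gfi1b, 0.14) and 2 lower over the span, and turned Bcl11a to 0.02 over the span. Quantile normalization gave first-step values of -0.09 for Lmo2 and -0.08 for Bcl11a, a second-step value of -0.02 for Zfpm1 and a span value of -0.07 for Lmo2. It left 1 factor gene with a lower second than first step, called 4592 genes higher in DC than in progenitors, 4350 than in Pre MegE and 4538 than in Pre CFU-E, and 1138 genes in the interaction test, and put 22 genes past 2-fold higher and 50 lower in KO than in WT DC. Without a filter 7 genes were called between KO and WT, 1 between Het and WT, and 6681 higher in DC than in progenitors, 6463 than in Pre MegE, 6476 than in Pre CFU-E and 6175 than in CFU-E. The stricter filter called 2 genes between Het and WT. Without a stage block 1 gene was called between KO and WT and 1 between Het and WT. A pseudocount put 12 genes past 2-fold lower in KO than in WT DC. With array weights, whose fit stopped before convergence, 3417 genes and 2 factor genes were higher and 4 factor genes lower at the second step, 44 genes differed between Het and WT, 1 factor gene had a higher second than first step, and 3653 genes and 6 factor genes were called in the interaction test; Lmo2 and Bcl11a were each -0.02 at the first step and Zfpm1 -0.05 at the second. The cause of these changes was not tested.

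Leaving out 1 array gave 1322 to 2230 genes higher at the second step, 1730 to 2614 higher in DC than in Pre MegE, 1 to 26 between KO and WT, 1 to 5 between Het and WT and 0 to 1 between KO and Het. The comparison of the steps then called 953 to 1599 genes higher and 1591 to 2679 lower, with 1 to 2 factor genes lower, and the interaction test 201 to 822 genes and 0 to 1 factor genes. First-step values ran from -0.03 to 0.02 for Lmo2 and from -0.02 to 0.05 for Bcl11a, and the second-step value of Zfpm1 from -0.09 to 0.06, lowest without the KO CFU-E array. Probe sets near the array median give compressed differences, which bears on the 4 genes below it in DC.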
